A study of Mus musculus with 18 samples.

Results

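Basal stem cells (BSCs) of the mouse trachea were compared with the EpCAM-negative cells of the mouse lung, which are the population of the series that was sorted for lacking the epithelial surface protein EpCAM. The comparison took the 3 BSC libraries and the 3 EpCAM-negative libraries by their sample labels, 6 of the 18 libraries of the series, and asked which transcripts separated basal cells from stroma and which matrix, adhesion and contractile genes both populations expressed. BSCs were sorted as NGFR-positive cells from normal trachea of mice 1 to 3, and EpCAM-negative cells from normal lung of mice 4 to 6. All the animals were untreated C57BL/6 mice, described in the study's methods as males. The tracheas had been dissociated with dispase and then trypsin and the lungs with collagenase. The label of the EpCAM-negative gate names EpCAM alone. In the study's methods mouse lung cells were also stained for CD45 and CD31, which mark blood and endothelial cells, and alveolar cells were gated as lacking both, but whether the EpCAM-negative gate used these stains is not given in the sources used here. Markers of fibroblasts, smooth muscle, pericytes, endothelium, mesothelium and blood cells were therefore read in it. Organ, animal, dissociation and sequencing depth all changed together with the population and cannot be told apart from it. The other 4 populations (non-basal NGFR-negative cells of the same 3 tracheas, and CD24-high airway, CD24-low airway and alveolar cells of the same 3 lungs) were used to share the estimate of spread and, near the end, to ask what BSCs and EpCAM-negative cells had in common.

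Basal cells sit on the basement membrane of the pseudostratified airway epithelium. They are held there by hemidesmosomes, in which the integrin made of *Itga6* and *Itgb4* links keratin filaments inside the cell to laminin outside it, and they are held to their neighbours by desmosomes and cadherin junctions. Stromal cells make the interstitial matrix of fibrillar collagens, elastic fibres and proteoglycans and grip it through focal adhesions, in which other integrins are coupled to actin. Contraction needs actin filaments and myosin II, and smooth muscle and myofibroblasts carry their own actin, myosin and regulatory isoforms beside those that every cell uses.

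Counted reads were between 29317215 and 31028030 per BSC library and between 11890927 and 13208897 per EpCAM-negative library, so that rare transcripts were measured with less counting error in BSCs. The BSC totals are above the read yield per mouse library that the study's methods state, for a reason that is not given in the sources used here, and the counts were used as deposited. Between 51.6% and 52.1% of the counts above 0 were odd in the BSC libraries, which shows only that not every count was an exact double. The reason for the higher totals was not tested. Levels are given as RPKM (read counts scaled for gene length and for TMM-scaled library size), in the order of replicates 1 to 3, and differences as the log2 fold change of BSCs over EpCAM-negative cells ± its standard error in edgeR, so that a negative difference is a higher level in EpCAM-negative cells. Where a value is set against another, the BSC libraries come first and the EpCAM-negative libraries second. Log2 levels of all tested genes had correlations between 0.994 and 0.996 within BSCs, between 0.987 and 0.990 within EpCAM-negative cells and between 0.715 and 0.726 across the populations. The libraries came from separate mice, 3 a group, and 3 libraries against 3 cannot give an exact permutation p below 0.1, so the tests rest on the model over all genes.

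The marker transcripts followed the labels. *Krt5*, the keratin that defines basal cells (chromosome 15, 101707069 to 101712905 of GRCm38.p6), was at 1567, 1571 and 1478 RPKM in BSCs and 0.183, 0.226 and 0.174 RPKM in EpCAM-negative cells, a log2 difference of 12.93 ± 0.40 (adjusted p = 2.01e-14). *Col1a1*, a chain of type I collagen (chromosome 11, 94936224 to 94953042), was at 0.0242, 0 and 0.0360 RPKM in BSCs and 1077, 1157 and 1071 RPKM in EpCAM-negative cells, a log2 difference of -15.66 ± 0.80 (adjusted p = 1.19e-11). The genes of the sort itself, which are checks and not results, stood the same way, with *Ngfr* at 42.3, 36.9 and 39.7 RPKM against 0.448, 0.630 and 0.581. *Epcam* was at 107, 96.8 and 100.2 RPKM against 1.68, 1.72 and 1.88. In each of these 4 genes the libraries of the populations did not overlap.

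Of 15 basal cell markers, 15 were higher in BSCs, and so were 15 of 15 pan-epithelial markers. The genes of the sort are counted among them, *Ngfr* in the basal and *Epcam* in the pan-epithelial list. All 16 fibroblast markers, 13 of 13 smooth muscle and pericyte markers and 12 of 12 endothelial markers were higher in EpCAM-negative cells. Several markers, such as *Itgb4*, *Col17a1*, *Col1a1*, *Dcn* and *Acta2*, are also members of the lists read below, which are therefore not separate from these counts. In BSCs the endothelial markers summed to between 0.562 and 0.636 RPKM, with *Cdh5*, *Cldn5*, *Emcn* and *Sox17* at 0 reads, and the smooth muscle and pericyte markers to between 7.31 and 7.68 RPKM. Of 10 airway luminal and alveolar markers 4 were higher in BSCs and 6 in EpCAM-negative cells. The BSC libraries did carry transcripts of luminal airway cells, with *Cyp2f2* at 7569.6, 6942 and 6803 RPKM. *Scgb3a2* was at 2325, 2043 and 1817 RPKM. Leukocyte markers summed to between 331 and 625 RPKM there, most of it *Lyz2* (595, 362 and 292 RPKM). By the test, 11 of 15 leukocyte markers were higher in EpCAM-negative cells, 1 was higher in BSCs and 3 were not called. The EpCAM-negative libraries were a mixture. Beside a fibroblast sum between 15348 and 16422 RPKM they held a smooth muscle and pericyte sum between 1778 and 1940, an endothelial sum between 247 and 419, a leukocyte sum between 302 and 421 and an erythroid sum that ran from 120.2 in replicate 3 to 1056 in replicate 1. In the CD24-high airway, CD24-low airway and alveolar libraries of the same lungs endothelial sums ran from 86.2 to 472 RPKM. Leukocyte sums there ran from 309 to 44294 RPKM, so that neither sum was particular to the EpCAM-negative gate. The EpCAM-negative libraries also held alveolar and airway transcripts, with *Sftpc* at 555, 495 and 858 RPKM. *Scgb1a1* was at 1509.7, 2436 and 2499 RPKM. Their pan-epithelial markers were at a median of 1.98% of the BSC level, from 0.360% for *Grhl2* to 13.9% for *Spint2*. Of 6 mesothelial markers 3 were higher in each population. They summed to between 322 and 337 RPKM in BSCs, where *Wt1* was at 0 reads, and to between 55.6 and 96.0 RPKM in EpCAM-negative cells. The same markers summed to between 1541 and 1573 RPKM in the non-basal tracheal libraries, so the sum is not read here as an amount of mesothelium. Of 5 glial markers tested 3 were higher in BSCs, with a sum between 25.9 and 28.8 RPKM, and 1 in EpCAM-negative cells, with a sum between 2.28 and 3.48. The 5 chondrocyte markers tested were higher in EpCAM-negative cells, where they summed to between 2.76 and 5.21 RPKM. A bulk library cannot tell fewer cells of a type from less RNA per cell, and the part of these other cells in the results that follow was not tested.

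**Figure D1:**
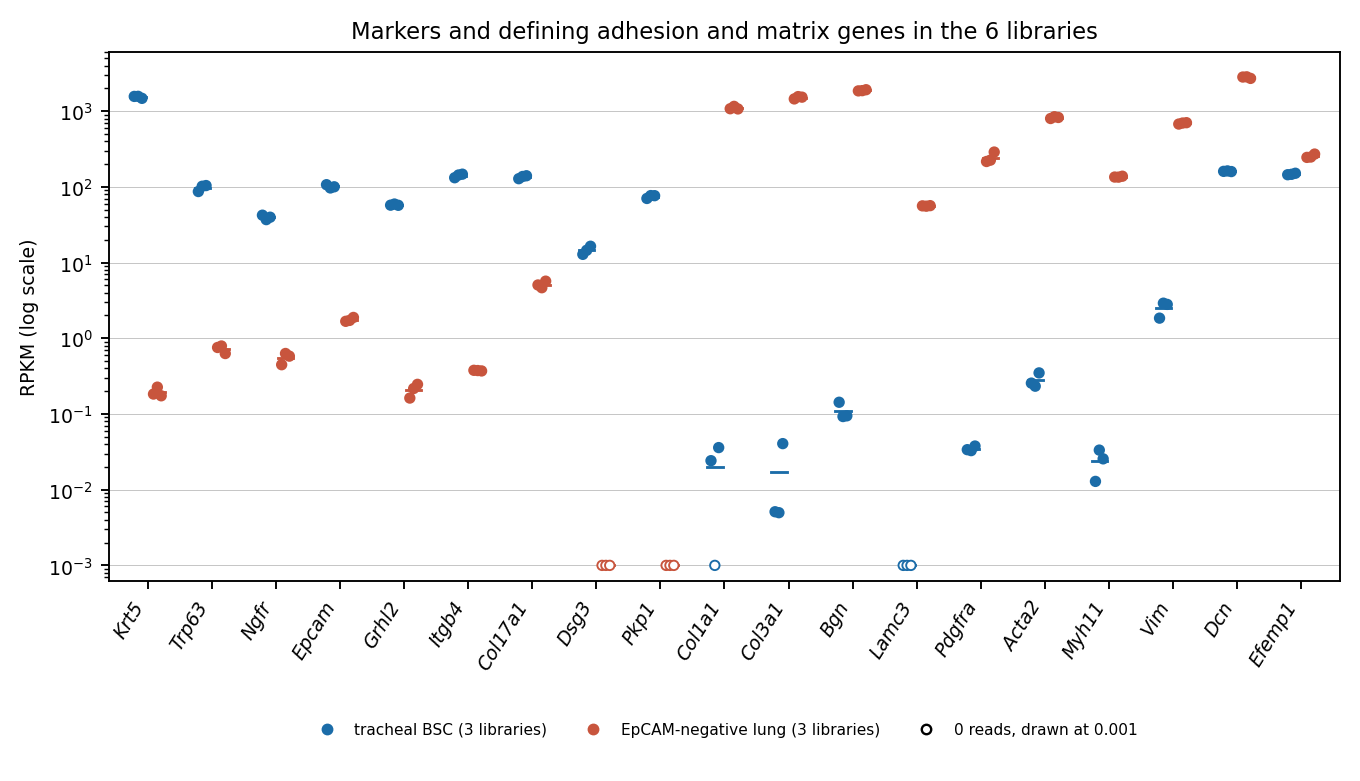
RPKM on a log axis of 19 marker, adhesion and matrix genes in the 3 tracheal BSC libraries (blue) and the 3 EpCAM-negative lung libraries (red), with short lines at the group means and open circles for 0 reads. Genes of basal cells from *Krt5* to *Pkp1* stood high in blue, stromal genes from *Col1a1* to *Vim* stood high in red, and *Dcn* and *Efemp1* were above 100 RPKM in all 6 libraries.

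Of 17989 genes tested, 6069 (33.7%) were higher in BSCs and 6570 (36.5%) higher in EpCAM-negative cells at an adjusted p under 0.05, together 70.3%. Which of these counts was the larger depended on the scaling, with 7378 and 5535 genes by library size alone and 6422 and 6300 with the trend on gene length removed. The 10 most abundant genes with a log2 difference of at least 4 in BSCs were led by *Bpifa1*, which encodes an airway host-defence protein, at 18174, 12367 and 10112 RPKM. The others were the metabolic enzyme genes *Cyp2f2*, *Cbr2* and *Gsto1*, the keratins *Krt15*, *Krt5* and *Krt19*, the secretory genes *Scgb3a2* and *Wfdc2* and the water channel gene *Aqp3*. The 10 most abundant genes as far apart in EpCAM-negative cells were led by *Mgp*, which encodes a matrix protein that blocks calcification, at 14296, 14315 and 13633 RPKM, and were otherwise *Gsn*, *Inmt*, *Dcn*, *Serping1*, *Gpx3*, *Bgn*, *Sparcl1*, *Col3a1* and *Clec3b*. Of these 10, *Dcn*, *Bgn*, *Sparcl1* and *Col3a1* are also members of the matrix lists described next.

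The 3 classes, listed as 6 matrix, 6 adhesion and 4 contractile lists, differed in how they divided. Of 129 matrix genes 7 were higher in BSCs, 120 higher in EpCAM-negative cells and 2 passed in neither direction, with a median log2 difference of -6.20 (-6.14 with the 13 members at 0 reads in 1 population set to their bound) against -0.03 over all genes. Of 114 adhesion genes tested (117 listed) 54 were higher in BSCs and 50 in EpCAM-negative cells, with a median of 0.12. Of 60 contractile genes 14 were higher in BSCs and 40 in EpCAM-negative cells, with a median of -1.16. Over the 303 members the libraries of the 2 populations did not overlap for 288, against 78.3% of all genes (38.3% with BSCs higher and 40.0% with EpCAM-negative cells higher).

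**Figure D2:**
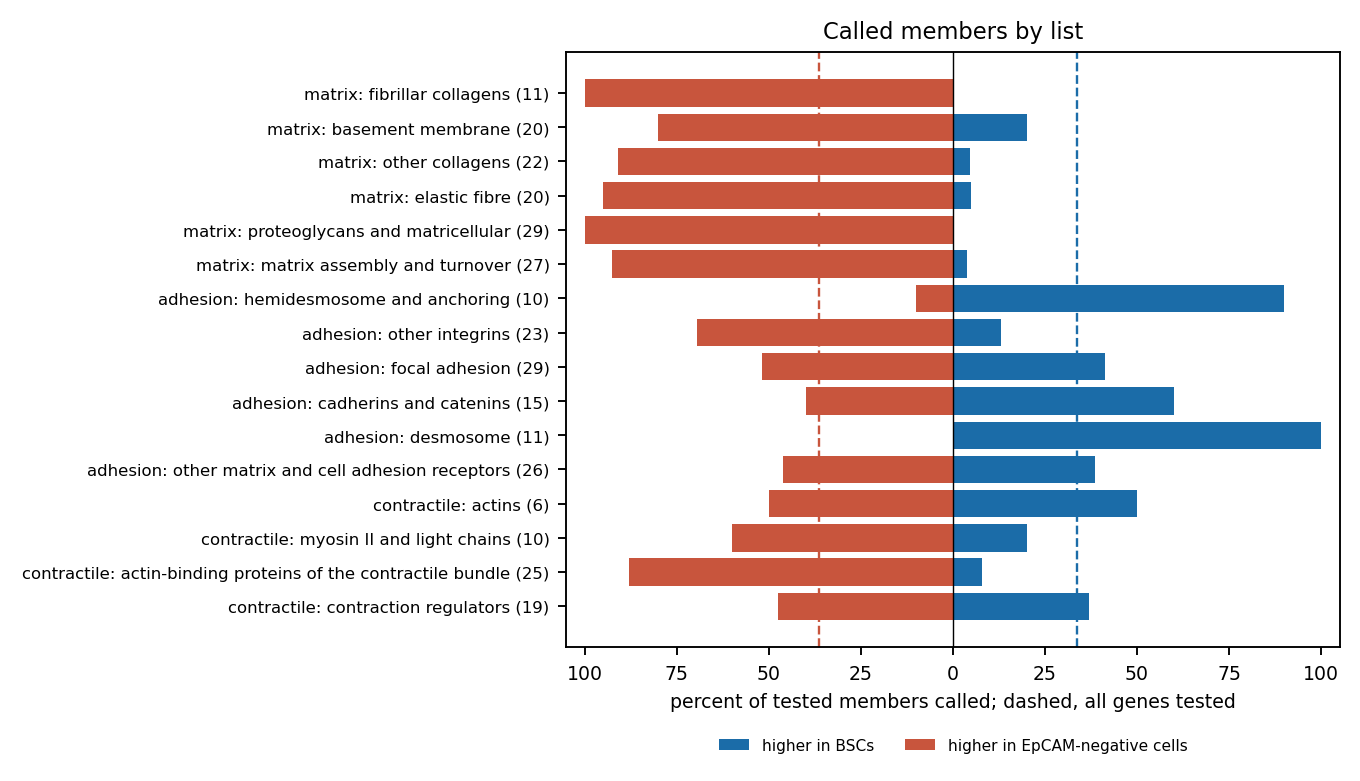
Percent of the tested members of each list (number in brackets) that were higher in BSCs (blue, to the right) or in EpCAM-negative cells (red, to the left) at an adjusted p under 0.05, with dashed lines at 33.7% and 36.5%, the shares over all genes tested. The 6 matrix lists ran to the left, the hemidesmosome and desmosome lists to the right, and the other adhesion and contractile lists to both sides.

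Fibrillar collagens form the rope-like fibres of interstitial matrix, and 11 of 11 were higher in EpCAM-negative cells. *Col3a1* was at 0.00511, 0.00497 and 0.0406 RPKM in BSCs and 1452, 1558 and 1532 RPKM in EpCAM-negative cells. *Col1a2* was at 0.00553, 0.0107 and 0.0165 against 1139.7, 1217 and 1169. The reads behind the BSC values were 10 for *Col3a1*, 6 for *Col1a2* and 10 for *Col1a1* over the 3 libraries together, so that these 3 transcripts were close to the limit of detection in BSCs. The smallest difference in the list was that of *Col11a2*, at 0.254, 0.335 and 0.368 RPKM in BSCs and 1.43, 1.06 and 0.734 RPKM in EpCAM-negative cells.

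The basement membrane is the sheet of type IV collagen, laminin, nidogen and perlecan under epithelia and around muscle and vessels. At 1 RPKM or more in all 6 libraries were 8 of its 20 genes, against 58.9% of all genes tested. Of the 20 genes, 16 were higher in EpCAM-negative cells and 4 in BSCs (*Col4a6*, *Lama1*, *Lama5* and *Agrn*). *Col4a1*, which with *Col4a2* makes the common type IV collagen, was at 0.598, 0.886 and 1.09 RPKM in BSCs and 197, 213 and 216 RPKM in EpCAM-negative cells. *Col4a6* went the other way by a small margin, at 25.2, 24.4 and 28.7 RPKM against 20.4, 20.9 and 19.9, a log2 difference of 0.36 ± 0.14 (adjusted p = 0.0262), and its neighbour *Col4a5* was at 20.1, 19.9 and 22.6 against 50.9, 52.3 and 55.1. The other 4 type IV chains were under 2 RPKM in each BSC library. The call for *Col4a6* was lost when BSC replicate 3 or any 1 of the EpCAM-negative libraries was left out (adjusted p = 0.112 without BSC replicate 3 in edgeR), with thinned tracheal libraries and with the length trend removed.

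Laminins are trimers of an alpha, a beta and a gamma chain. Among the alpha chains *Lama5* was higher in BSCs (52.4, 56.97 and 64.3 RPKM against 12.1, 11.2 and 11.2, log2 difference 2.33 ± 0.14), while *Lama2* (0.00293, 0.00569 and 0.0203 against 85.6, 88.9 and 89.2) and *Lama4* (0.0706, 0.0823 and 0.0934 against 110.2, 107 and 115) were higher in EpCAM-negative cells. *Lamb3*, the beta chain of laminin 332 in the anchoring list, was at 127, 139 and 139 RPKM in BSCs and 3.37, 2.44 and 2.72 in EpCAM-negative cells, and *Lamb1* at 0.423, 0.717 and 0.689 against 168, 175 and 182. The gamma chain *Lamc3* had 0 reads in BSCs and was at 56.1, 55.6 and 56.5 RPKM in EpCAM-negative cells, at least 11835-fold higher there with 3 reads over the group as the floor. Both populations expressed *Lamc1* (18.3, 20.7 and 22.2 against 135, 142 and 150.0 RPKM) and *Lamb2* (37.2, 36.7 and 37.04 against 116, 115 and 113). *Agrn*, a basement membrane proteoglycan, was higher in BSCs (94.99, 95.3 and 103 against 26.6, 25.9 and 27.1 RPKM), and *Hspg2*, which encodes perlecan, was at 1.36, 1.76 and 2.13 against 67.9, 69.4 and 68.8.

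Among other collagens 20 of 22 were higher in EpCAM-negative cells and 1 in BSCs. The beaded-filament collagens *Col6a1* and *Col6a2* were at 383, 383 and 412 and at 454, 463 and 467 RPKM in EpCAM-negative cells with 7 and 8 reads over the 3 BSC libraries. *Col14a1*, which coats collagen fibrils, was at 0.507, 0.574 and 0.666 RPKM in BSCs and 167, 171 and 166 in EpCAM-negative cells. *Col25a1*, a transmembrane collagen, was higher in BSCs but low in each library (0.255, 0.233 and 0.211 against 0.129, 0.110 and 0.0611 RPKM, adjusted p = 0.0255), and the call was lost without BSC replicate 1 or without EpCAM-negative replicate 2 or 3 (adjusted p = 0.103 without the last). The members at 1 RPKM or more in all 6 libraries were *Col16a1* (6.68, 6.18 and 6.49 against 49.7, 54.5 and 53.98), *Col20a1* (1.47, 1.37 and 1.61 against 3.12, 3.45 and 3.27) and *Col23a1* (1.06, 1.41 and 1.37 against 50.1, 51.2 and 61.7).

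Elastic fibres are elastin on a scaffold of microfibrils, and 19 of 20 of their genes were higher in EpCAM-negative cells. *Eln*, elastin itself, was at 876, 923 and 931 RPKM there and 0.0226, 0.0219 and 0.0373 RPKM in BSCs, and the microfibril gene *Mfap4* was at 1381, 1394 and 1497 RPKM against 0 reads in BSCs, at least 76759-fold higher. Of the 20 genes, 7 were at 1 RPKM or more in all 6 libraries, against 58.9% of all genes tested. Those highest in BSCs were the fibulin gene *Efemp1* and the TGF-beta binding genes *Ltbp4* and *Ltbp3*. *Efemp1* was at 145, 147 and 151 RPKM in BSCs and 245, 248 and 271 RPKM in EpCAM-negative cells, a log2 difference of -0.79 ± 0.10. *Ltbp4* was at 125, 128 and 134 against 841, 877 and 907 RPKM. *Ltbp3* was at 19.3, 20.03 and 21.4 against 96.2, 99.3 and 99.3. *Fbn2*, a fibrillin, was the member higher in BSCs, at 0.225, 0.174 and 0.264 RPKM against 0.0690, 0.0709 and 0.0363.

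Proteoglycans and matricellular proteins, which fill and tune the matrix, were higher in EpCAM-negative cells in 29 of 29 cases. At 1 RPKM or more in all 6 libraries were 12 of them, against 58.9% of all genes tested. *Sparcl1* was at 1549.6, 1581 and 1636 RPKM in EpCAM-negative cells and at 0 reads in BSCs, at least 176329-fold higher. *Bgn* was at 0.143, 0.0925 and 0.0945 RPKM against 1853, 1867 and 1921. Decorin, the collagen-binding proteoglycan encoded by *Dcn* (chromosome 10, 97479500 to 97518163), was measured at a substantial level in both. *Dcn* was at 160.3, 163 and 159 RPKM in BSCs and 2824, 2842 and 2709.7 RPKM in EpCAM-negative cells, a log2 difference of -4.12 ± 0.16 (adjusted p = 1.55e-13). Its BSC level was 5.76% of the EpCAM-negative level, where the median over the 16 fibroblast markers was 0.00151%. *Lum*, a close relative in the same family, had 1 read over the 3 BSC libraries and was at 141, 155 and 151 RPKM in EpCAM-negative cells. Fibronectin, *Fn1*, the main adhesive protein of provisional matrix, was at 6.11, 6.40 and 6.97 RPKM in BSCs and 222, 278 and 301 in EpCAM-negative cells. The matricellular genes *Cyr61* (also called *Ccn1*) and *Ctgf* (*Ccn2*) were abundant in both, *Cyr61* at 671, 837 and 795 against 1159, 1219 and 1292 RPKM. *Ctgf* was at 119.6, 113 and 116 against 203, 225 and 279. Both are also early response genes, and other early response genes were abundant in all 6 libraries, with *Fos* at 2850.2, 3442 and 3416 RPKM in BSCs and 2195, 2189 and 2765 in EpCAM-negative cells. Dissociation differed between the organs and cannot be told apart from the population in these levels.

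Enzymes and inhibitors that build and remodel matrix were higher in EpCAM-negative cells in 25 of 27 cases, with *P3h2* higher in BSCs and *P4ha2* not called. *P4ha2*, a subunit of collagen prolyl 4-hydroxylase, was at 15.6, 14.3 and 15.02 RPKM in BSCs and 14.2, 16.3 and 15.3 in EpCAM-negative cells, a log2 difference of -0.03 ± 0.10 (95% interval -0.24 to 0.19), and *P3h2*, a prolyl 3-hydroxylase, was at 26.1, 29.98 and 32.04 against 1.54, 2.06 and 1.73. Of the 6 matrix lists this one had the most members in both populations. At 1 RPKM or more in all 6 libraries were 18 of 27, against 58.9% of all genes tested. The metalloproteinase inhibitors *Timp2* (52.2, 57.3 and 57.96 against 829, 827 and 847 RPKM) and *Timp3* (64.9, 93.5 and 91.04 against 936, 867 and 923) and the procollagen processing gene *Pcolce* (119, 99.6 and 100.8 against 594, 607 and 577) were among them, while *Pcolce2*, its relative, was at 0.0457, 0.104 and 0.0908 RPKM in BSCs against 593, 592 and 749.5.

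Hemidesmosome and desmosome genes were mostly or all higher in BSCs. Of 10 hemidesmosome and anchoring genes, 9 were higher in BSCs and *Cd151* was higher in EpCAM-negative cells. *Itgb4* was at 132, 143 and 147 RPKM in BSCs and 0.377, 0.375 and 0.370 RPKM in EpCAM-negative cells, a log2 difference of 8.55 ± 0.25 (adjusted p = 6.09e-15). *Col17a1*, the transmembrane collagen of the hemidesmosome, was at 128, 137 and 140.3 against 5.06, 4.65 and 5.68. The plakin genes were expressed in both populations and differed less, *Plec* at 42.95, 49.1 and 51.8 against 12.3, 12.2 and 12.4. *Dst* was at 23.3, 27.8 and 31.1 against 13.5, 14.6 and 15.02. In *Plec* and *Dst* the 3 BSC libraries lay above the 3 EpCAM-negative ones. *Cd151*, a tetraspanin that partners laminin-binding integrins, was at 83.3, 84.3 and 76.3 against 104.5, 104 and 118, and its call was lost with library size alone as the scaling (adjusted p = 0.114 in edgeR).

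All 11 desmosome genes tested of 13 listed were higher in BSCs. *Dsp*, desmoplakin, was at 121, 136 and 131 RPKM against 0.904, 0.818 and 0.794. *Perp* was at 390.1, 412 and 422 against 5.15, 4.43 and 4.33. The desmosomal cadherins *Dsg3* and *Dsc3* and the plakophilin *Pkp1* had 0 reads in the 3 EpCAM-negative libraries and were at least 754-fold, at least 578-fold and at least 4202-fold higher in BSCs. *Jup*, plakoglobin, which also serves classical cadherins, was the smallest difference of the list at 1.83 ± 0.13 (97.05, 104.5 and 104 against 30.2, 25.6 and 29.8 RPKM).

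Classical cadherins differed in direction, and their catenins were expressed in both populations. *Cdh1*, E-cadherin, was at 111, 114 and 111 RPKM in BSCs and 2.67, 2.84 and 2.67 in EpCAM-negative cells, and *Cdh11*, a mesenchymal cadherin, at 0.0270, 0.0262 and 0.0603 against 115, 112 and 135. *Cdh5*, the cadherin of endothelium, was at 0 reads in BSCs and at 51.6, 40.5 and 32.2 RPKM in EpCAM-negative cells. It is itself among the endothelial markers summed above. The catenins *Ctnnb1* (365, 358 and 349 against 147, 147 and 152 RPKM), *Ctnna1* (132, 138 and 136 against 74.2, 75.1 and 81.4) and *Ctnnd1* (66.9, 73.9 and 75.8 against 44.6, 40.4 and 43.8) were higher in BSCs by log2 differences of 1.27, 0.82 and 0.75. *Cdh2*, N-cadherin, was low in both at 1.19, 1.17 and 0.906 RPKM in BSCs and 0.449, 0.746 and 0.590 RPKM in EpCAM-negative cells.

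Integrins other than those of the hemidesmosome were higher in EpCAM-negative cells in 16 of 23 cases and in BSCs in 3 (*Itga3*, *Itgb6* and *Itgb7*). *Itgb1*, the common beta chain, was abundant in both at 125, 126 and 131 RPKM against 226, 237 and 259. *Itgav* was at 15.8, 16.1 and 17.4 against 14.2, 14.9 and 15.9, a log2 difference of 0.13 ± 0.17 that did not pass (95% interval -0.24 to 0.50). Some partner chains differed in direction and others were expressed in both populations. *Itga8*, which pairs with *Itgb1* in mesenchyme, was at 0.0443, 0.0765 and 0.0488 RPKM in BSCs and 193, 202 and 262 in EpCAM-negative cells. *Itga3*, a laminin receptor chain of epithelia, was at 77.4, 88.1 and 89.96 against 16.8, 12.9 and 12.7, and *Itgb6*, the epithelial partner of *Itgav*, was at 4.33, 3.50 and 4.55 against 1.26, 0.937 and 0.939. *Itgb5*, another partner of *Itgav*, was at 44.3, 45.1 and 44.8 RPKM in BSCs and 143, 133 and 141 in EpCAM-negative cells. Integrins of leukocytes did not all go one way. *Itgal*, *Itgam* and *Itgb2* were higher in EpCAM-negative cells and, like *Ptprc* (5.29, 7.58 and 2.08 RPKM), were highest in replicate 2 and lowest in replicate 3 of that population. *Itgb7* was higher in BSCs (4.44, 3.72 and 4.29 against 2.13, 2.53 and 1.05 RPKM), and *Itgax* did not pass (1.19, 1.68 and 1.70 against 0.918, 1.76 and 0.700).

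Focal adhesion genes went both ways, with 12 of 29 higher in BSCs, 15 higher in EpCAM-negative cells and 2 not called. Over all genes tested 33.7% and 36.5% were higher in these directions. At 1 RPKM or more in all 6 libraries were 24 of 29, against 58.9% of all genes tested. *Zyx*, zyxin, was at 33.2, 45.8 and 44.00 RPKM against 208, 205 and 231. *Vcl*, vinculin, was at 27.9, 28.8 and 31.99 against 84.5, 85.7 and 98.2. *Actn4*, an actinin, was at 151, 167 and 164 against 56.6, 58.4 and 56.01. *Parva*, a parvin that links integrins to actin, was at 140.3, 132 and 140.4 against 53.9, 54.1 and 58.4. Zyxin and vinculin were thus higher in EpCAM-negative cells, and the actinin and the parvin in BSCs. Focal adhesion kinase and integrin-linked kinase had intervals within 2-fold, with *Ptk2* at 14.2, 14.6 and 14.00 against 10.3, 10.3 and 10.5. *Ilk* was at 76.5, 77.3 and 76.3 against 114, 116 and 122. Within the kindlin and tensin families the members went in different directions. *Fermt1*, the epithelial kindlin that activates integrins, was at 13.6, 14.5 and 14.8 RPKM in BSCs and 0.0306, 0.0471 and 0.0435 in EpCAM-negative cells, while *Fermt2* was at 5.78, 6.81 and 7.56 against 91.6, 95.5 and 111. Among tensins, *Tns4* was at 31.5, 26.8 and 25.8 against 0.169, 0.226 and 0.0480. *Tns1* was at 23.97, 27.9 and 29.7 against 179.6, 185 and 228. *Tns3* was at 86.8, 84.5 and 84.00 against 68.4, 65.3 and 79.8. *Tns3* passed narrowly (adjusted p = 0.0287), and the call was lost without any 1 of the BSC libraries and without EpCAM-negative replicate 1 or 2, with adjusted p = 0.134 at most. It was also lost with RLE factors, with thinned tracheal libraries and with the length trend removed (adjusted p = 0.263).

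Other receptors of matrix and neighbouring cells also went both ways, with 10 higher in BSCs, 12 in EpCAM-negative cells and 4 not called of 26. This division was near that of all genes tested, of which 33.7% were higher in BSCs and 36.5% in EpCAM-negative cells. The collagen receptor *Ddr1* was at 71.8, 74.7 and 73.02 RPKM in BSCs and 18.2, 17.3 and 20.9 in EpCAM-negative cells, and its relative *Ddr2* at 0.0309, 0.0133 and 0.0238 against 79.9, 83.7 and 82.4. The syndecan *Sdc1*, a heparan sulphate proteoglycan of the cell surface, was at 187, 187 and 180.4 against 6.57, 6.48 and 6.03. *Sdc2* was at 8.26, 8.40 and 8.22 against 100.3, 100.3 and 116. *Sdc4* was at 261, 302 and 273 against 121, 129 and 141. So *Sdc1* and *Sdc4* were higher in BSCs and *Sdc2* in EpCAM-negative cells, all without overlap. *Bcam*, a receptor of laminin alpha 5, was at 296, 335 and 319.5 against 64.8, 55.6 and 53.6. *Vcam1*, a ligand of leukocyte integrins, was at 2.41, 2.77 and 2.83 against 129, 132 and 148. *Dag1*, dystroglycan, which binds laminin in many tissues, was at 67.9, 73.2 and 73.8 RPKM in BSCs and 66.7, 68.8 and 77.6 RPKM in EpCAM-negative cells, a log2 difference of 0.01 ± 0.08 (95% interval -0.16 to 0.18).

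**Figure D3:**
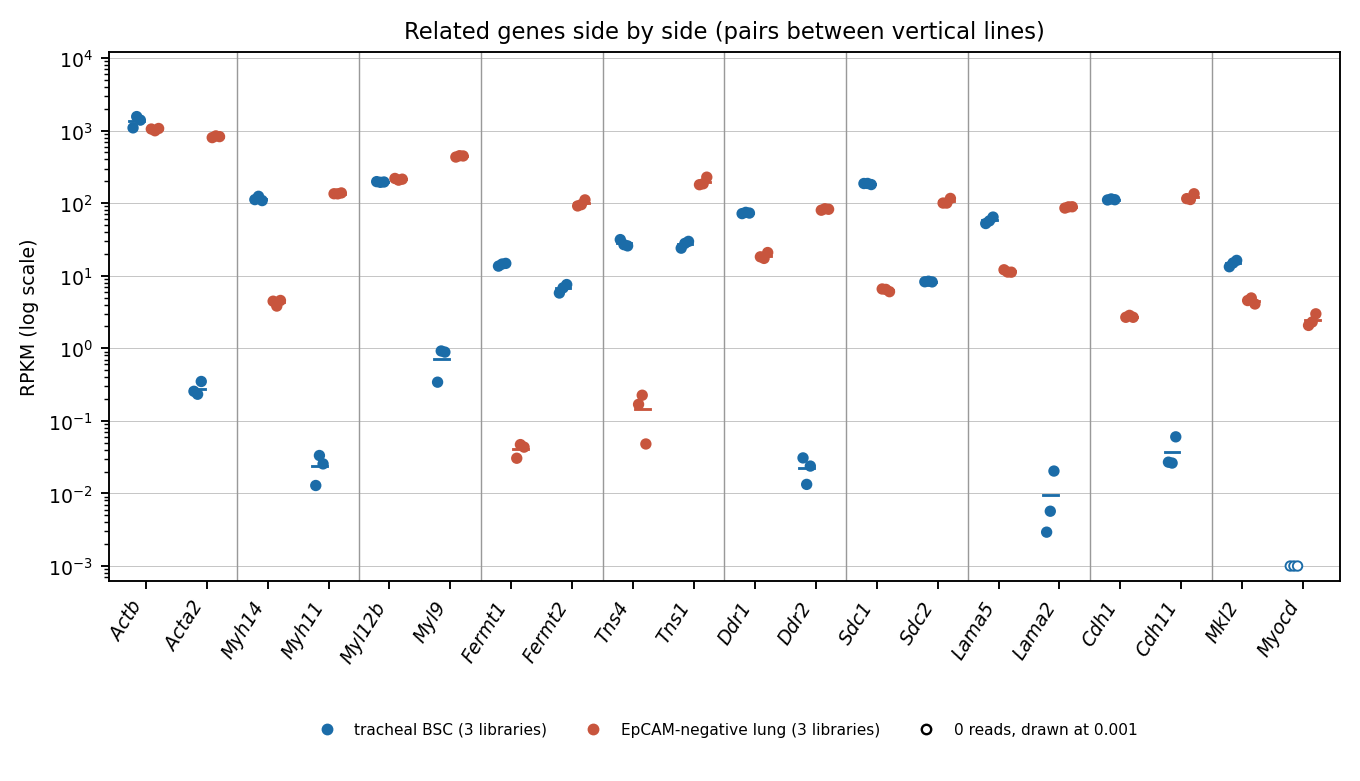
RPKM on a log axis of 10 pairs of related genes in the 3 BSC libraries (blue) and the 3 EpCAM-negative libraries (red), with short lines at the means and open circles for 0 reads. The pairs were chosen after their values were seen: the left gene was higher in BSCs in 9 of 10 pairs (all but *Myl12b*) and the right gene higher in EpCAM-negative cells in all 10.

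Contractile genes included isoforms that both populations expressed and isoforms of smooth muscle that were under 1 RPKM in BSCs. The smooth muscle and pericyte marker sum was at most 7.68 RPKM in BSCs and at least 1778 RPKM in EpCAM-negative cells. That marker list itself holds *Acta2*, *Actg2*, *Myh11*, *Cnn1*, *Des* and *Tagln*, so its sum is not a separate measure beside these genes. The part of muscle cells in the differences was not tested. Many genes of this class are known to hold a CArG box, the site of serum response factor (SRF), close to their start. Within the 250 bases before the RefSeq start sites, for the genes whose promoter was used here, a CArG box stood in 8 of 50 contractile genes, 4 of 75 adhesion genes (5.33%), 1 of 88 matrix genes (1.14%) and 194 of 13355 tested genes (1.45%), counting exact matches on either strand. The letters of a CArG box and of the AP-1 motif searched below do not allow them to overlap. The windows that follow, of RefSeq promoters on GRCm38.p6, are printed 5′ to 3′ along the gene, with the CArG box in capitals, for 4 genes that were higher in EpCAM-negative cells (*Myl9*, *Actc1*, *Cnn2* and *Myl6*) and 3 that were higher in BSCs (*Actg1*, *Srf* and *Itgb6*). They are shown because genes that hold the same site were called in both directions, although the intervals of *Myl6*, *Actg1* and *Srf* lay within 2-fold.
Myl9 (chr2:156775273-156775342, plus strand): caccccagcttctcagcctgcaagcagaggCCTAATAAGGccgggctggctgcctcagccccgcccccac
Actc1 (chr2:114052883-114052952, minus strand): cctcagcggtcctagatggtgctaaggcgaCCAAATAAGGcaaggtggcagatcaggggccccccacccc
Cnn2 (chr10:79988514-79988583, plus strand): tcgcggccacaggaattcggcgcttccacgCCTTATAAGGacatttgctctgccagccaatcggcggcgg
Actg1 (chr11:120348546-120348615, minus strand): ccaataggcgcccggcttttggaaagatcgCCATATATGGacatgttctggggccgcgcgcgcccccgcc
Srf (chr17:46556185-46556274, minus strand): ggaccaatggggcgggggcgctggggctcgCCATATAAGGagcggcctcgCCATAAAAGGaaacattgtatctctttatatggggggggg
Itgb6 (chr2:60673704-60673773, minus strand): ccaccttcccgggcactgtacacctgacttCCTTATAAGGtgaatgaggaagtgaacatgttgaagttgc
Myl6 (chr10:128493020-128493089, minus strand): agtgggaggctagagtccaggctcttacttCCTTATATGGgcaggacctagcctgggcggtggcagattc
Of the 8 contractile genes that held one, *Actc1*, *Cnn2*, *Ldb3*, *Myl6* and *Myl9* were higher in EpCAM-negative cells and *Acta1*, *Actg1* and *Srf* in BSCs, of which *Acta1* and *Myl6* lost their calls under settings given with them below. The 4 adhesion genes were *Itgb6*, higher in BSCs, and *Dmd*, *Fermt2* and *Vcl*, higher in EpCAM-negative cells. The matrix gene was *Lama2*, higher in EpCAM-negative cells. The AP-1 motif TGANTCA, searched in the same way, stood in 7 of 50 contractile genes (14.0%), 6 of 75 adhesion genes, 5 of 88 matrix genes (5.68%) and 6.24% of tested genes. A match describes the letters in this window and is not a measured binding site. The search held promoters for 50 of 60 contractile genes and 4 of 6 actins. A gene without a listed match, such as *Acta2* or *Tagln*, had either no promoter in the search or no exact match.

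Against 33.7% and 36.5% of all genes tested, 3 of 6 actins were higher in BSCs and 3 in EpCAM-negative cells. One of the former, the skeletal muscle actin *Acta1*, was low and variable at 1.81, 5.38 and 3.29 RPKM in BSCs against 1.12, 2.25 and 1.28 in EpCAM-negative cells, and its call was lost in 6 alternatives, among them without BSC replicate 2, where its log2 difference fell from 1.18 to 0.724 (adjusted p = 0.157 in edgeR). The cytoplasmic actin *Actb* was at 1090.5, 1559 and 1394 RPKM in BSCs and 1049.7, 994 and 1069 RPKM in EpCAM-negative cells, a log2 difference of 0.38 ± 0.13 (adjusted p = 0.018), and *Actg1* at 51.8, 56.95 and 67.1 against 33.9, 37.1 and 37.2, a difference of 0.70 ± 0.11. *Acta2*, the smooth muscle actin (chromosome 19, 34240336 to 34255585), was at 0.256, 0.233 and 0.349 RPKM in BSCs and 800.1, 845 and 826 RPKM in EpCAM-negative cells, a difference of -11.51 ± 0.45 (adjusted p = 3.57e-13). *Actg2* was at 0.0433, 0.0420 and 0.0215 against 72.4, 81.2 and 79.5. *Actc1*, the cardiac actin, was at 0 reads against 139, 166 and 160.0. In RPKM, which is per length, *Actb* and *Acta2* were of the same order in EpCAM-negative cells, while *Acta2* was below 0.4 RPKM in each BSC library. The *Actb* libraries of the populations did not overlap, but the call was lost without BSC replicate 2 or 3 or EpCAM-negative replicate 2 (adjusted p = 0.117 without BSC replicate 2). The actin genes are close copies of each other, as are *Myl12a* and *Myl12b*, and reads that could belong to more than 1 of them make their smaller values uncertain.

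Myosin II had shared and separate members too. The light chain *Myl12b* was at 198, 194 and 196 RPKM in BSCs and 219, 207 and 214 RPKM in EpCAM-negative cells, a log2 difference of -0.13 ± 0.09 that did not pass (95% interval -0.31 to 0.06), and *Myl12a*, its near copy, at 38.7, 47.9 and 43.2 against 59.4, 65.1 and 66.01. *Myl9*, the light chain of smooth muscle, was at 0.341, 0.918 and 0.886 against 432, 450.5 and 447, a difference of -9.26 ± 0.36. So *Myl12b* was shared and *Myl9* was under 1 RPKM in each BSC library. *Myl6*, the essential light chain, was at 195, 205 and 202 against 252, 252 and 231, and its call was lost with library size alone (adjusted p = 0.459 in edgeR) and with the length trend removed (adjusted p = 0.328). Among the heavy chains, *Myh9* was at 105.0, 108 and 108 RPKM in BSCs against 47.9, 50.7 and 50.2 in EpCAM-negative cells. *Myh14* was at 112, 124 and 109 against 4.46, 3.82 and 4.56. *Myh9* and *Myh14* were higher in BSCs, while *Myh10* was at 3.82, 4.05 and 3.26 against 89.5, 88.7 and 109.6 and the smooth muscle chain *Myh11* at 0.0129, 0.0333 and 0.0255 against 135, 134 and 138. These 4 heavy chains passed the test, a pair in each direction.

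Actin-binding proteins of the contractile bundle were higher in EpCAM-negative cells in 22 of 25 cases and in BSCs in 2, *Sorbs2* among them. *Tagln*, which marks smooth muscle, was at 2.31, 3.12 and 2.96 RPKM against 521, 568 and 587. *Cnn1*, calponin, was at 0.0573, 0.0417 and 0.0568 against 55.1, 67.7 and 67.5 and *Des*, the muscle intermediate filament desmin, had 1 read over the 3 BSC libraries against 109, 110.1 and 121 RPKM. Of the 25, 18 were at 1 RPKM or more in all 6 libraries, against 58.9% of all genes tested. *Csrp1* was at 346, 352 and 326 against 749, 745 and 778. *Tagln2* was at 104.7, 116 and 98.2 against 209, 216 and 232. *Tpm1* was at 87.4, 100.7 and 115 against 140.2, 147 and 148. Counts are per gene, so that epithelial and muscle splice forms of *Tpm1* cannot be told apart. *Flna*, a filamin that crosslinks actin, was at 59.2, 58.02 and 56.4 RPKM in BSCs against 271, 287 and 297 in EpCAM-negative cells.

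Regulators of contraction were mostly shared, 17 of 19 at 1 RPKM or more in all 6 libraries, against 58.9% of all genes tested. Among the 19, 7 were higher in BSCs, 9 higher in EpCAM-negative cells and 3 not called. Over all genes tested 33.7% and 36.5% were higher in these directions. *Rhoa*, the GTPase that switches on myosin, was at 112, 114 and 110.4 RPKM against 147, 140.2 and 142, a call that was lost with library size alone (adjusted p = 0.128 in edgeR). *Rock2*, its kinase, was at 22.3, 24.6 and 25.1 against 22.1, 26.6 and 25.9, a log2 difference of -0.05 ± 0.15. *Srf* itself was at 40.7, 56.5 and 50.5 RPKM in BSCs and 34.8, 36.4 and 35.4 in EpCAM-negative cells, a difference of 0.47 ± 0.14 (adjusted p = 0.00719). The SRF coactivators differed. *Mkl2* was higher in BSCs (13.3, 14.97 and 16.3 against 4.55, 4.94 and 4.08 RPKM), *Mkl1* differed by 0.41 ± 0.15 (8.51, 12.4 and 12.8 against 8.63, 8.13 and 8.65), a call that was lost without BSC replicate 2 or 3 or EpCAM-negative replicate 2 (adjusted p = 0.106 at most), and *Myocd*, the coactivator of smooth muscle and heart, had 0 reads in BSCs and was at 2.07, 2.30 and 2.99 RPKM in EpCAM-negative cells, at least 449-fold higher. *Ppp1r14a*, an inhibitor of myosin phosphatase in smooth muscle, was at 0.268, 0.208 and 0.425 against 206, 194 and 223. The muscle members *Myocd* and *Ppp1r14a* were thus the regulators missing or under 1 RPKM in BSCs. *Yap1* and its relative *Wwtr1*, effectors of mechanical signalling, were at 35.8, 38.5 and 38.95 against 30.7, 29.8 and 31.6 and 13.1, 13.8 and 14.8 against 41.8, 41.2 and 44.1.

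**Figure D4:**
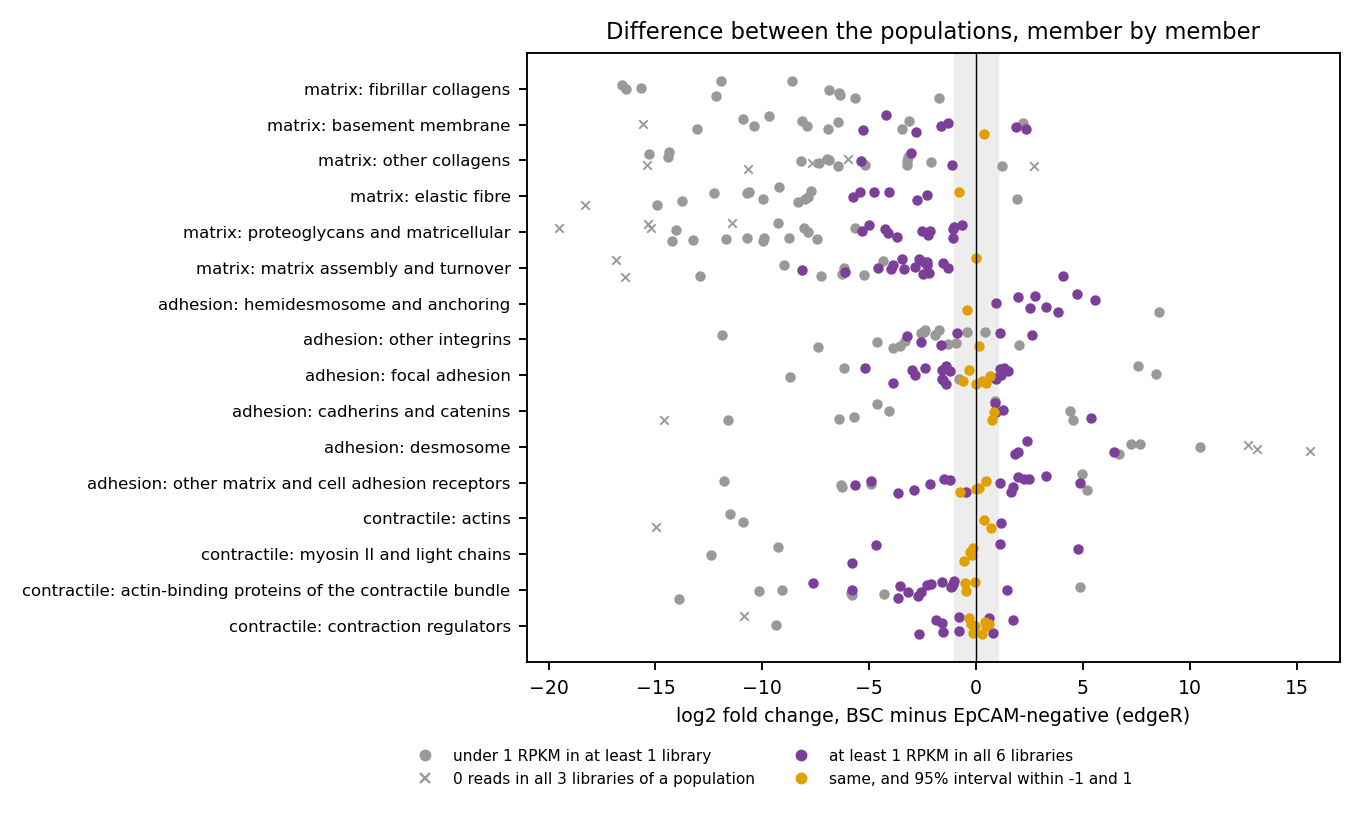
Log2 fold change of BSCs over EpCAM-negative cells for each tested matrix, adhesion and contractile gene by list, with genes under 1 RPKM in at least 1 library in grey, crosses for 0 reads in a whole population, purple for genes at 1 RPKM or more in all 6 libraries and yellow for those whose 95% interval also lay between -1 and 1. Of the 34 yellow points, 8 were contraction regulators, 6 focal adhesion genes and 3 matrix genes.

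Across the 3 classes, 164 of 303 genes (54.1%) were at 1 RPKM or more in each of the 6 libraries, against 58.9% of all genes tested. They were 48 matrix, 70 adhesion and 46 contractile genes, of which 55 were higher in BSCs, 96 higher in EpCAM-negative cells and 13 not called. Their log2 differences ran from -8.15 for *Mmp2* to 6.46 for *Perp*, so that expression in both did not mean a like level. For 34 of the 164 (20.7%) the 95% interval of the difference lay between -1 and 1, that is within 2-fold, against 60.0% of the 10602 genes that were at this level in all 6 libraries. These 34 were 3 matrix genes (*Col4a6*, *Efemp1* and *P4ha2*), 14 adhesion genes (*Cd151*, *Itgav*, *Tln2*, *Ptk2*, *Ilk*, *Tns3*, *Pdlim5*, *Lpp*, *Ctnna1*, *Ctnnd1*, *Dag1*, *Icam1*, *Cadm1* and *Utrn*) and 17 contractile genes (*Actb*, *Actg1*, *Myl6*, *Myl6b*, *Myl12a*, *Myl12b*, *Tpm1*, *Tpm3*, *Synpo*, *Rhoa*, *Rock2*, *Ppp1cb*, *Ppp1r12a*, *Cdc42bpb*, *Srf*, *Mkl1* and *Yap1*).

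The lower level in a shared gene was often a small share of the higher one. Of the 55 shared genes that were higher in BSCs, 10 had an EpCAM-negative level below 13.9% of the BSC level, the highest share that a pan-epithelial marker reached in that mixture, and 6 were below 5%. Whether transcripts of the other population's cell types carried these low levels was not tested. Of the 96 higher in EpCAM-negative cells, 17 had a BSC level below 5% of the EpCAM-negative level and 48 below 20%. Fibroblast markers other than *Dcn* were under 1 RPKM in each BSC library.

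BSCs and EpCAM-negative cells also shared genes that the other 4 populations held at lower levels. Over all genes, 490 (2.72%) were higher in BSCs and higher in EpCAM-negative cells than in each of non-basal, CD24-high airway, CD24-low airway and alveolar cells, with an adjusted p under 0.05 in all 8 contrasts. The contrasts of BSCs with non-basal cells and of EpCAM-negative cells with the other lung populations were between cells of the same mice, and those across organs were between different mice. Among the 303 members 20 (6.60%) were, 9 matrix, 7 adhesion and 4 contractile genes, and 19 of the 20 (all but *Itgb8*) were at 1 RPKM or more in all 6 libraries. With library size alone as the scaling the counts were 885 genes and 33 members. For each of the 20 the lowest of the 6 libraries lay above the highest of the other 12. The same libraries had selected these genes, so that this separation was largely set in advance. Between the 2 populations themselves, 15 of the 20 were higher in EpCAM-negative cells, 3 in BSCs (*Col4a6*, *Dst* and *Cdh13*) and 2 were not called (*Sdc3* and *Ppp1r12a*). *Sdc3* was at 8.19, 9.28 and 8.64 RPKM in BSCs and 12.1, 11.7 and 12.2 in EpCAM-negative cells without overlap, and it was called when edgeR was fitted on the 6 libraries alone (adjusted p = 5.2e-05).

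*Matn2*, a filament-forming adaptor of the matrix, was at 7.97, 8.27 and 8.57 RPKM in BSCs, 16.97, 18.04 and 16.9 in EpCAM-negative cells and at most 1.35 in the 12 other libraries. *Tnc*, tenascin C, was at 5.33, 4.81 and 5.70 against 9.15, 10.9 and 13.7 RPKM and at most 1.43 elsewhere. *Cdh13*, an anchored cadherin without an intracellular tail, was at 34.5, 37.3 and 39.1 against 18.7, 20.6 and 21.8 RPKM and at most 6.06 elsewhere. These 3 genes and *Sgcd*, a sarcoglycan of the dystrophin complex (3.31, 5.19 and 5.75 against 12.4, 14.9 and 13.7 RPKM, at most 1.26 elsewhere), stood furthest from the rest by the smaller of their 2 log2 margins.

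*Efemp1* was at most 61.3 RPKM and at least 47.5 RPKM in the other 12 libraries, so that it was expressed in all 18 libraries. *Dcn* was at most 119.7 RPKM in them, in a CD24-low airway library, a population whose fibroblast marker sum was between 328 and 659 RPKM against between 160 and 163 in BSCs. In BSCs that sum was nearly all *Dcn*. Alveolar libraries had a higher fibroblast sum, between 712 and 1253 RPKM, and *Dcn* between 15.98 and 21.1 RPKM. *Mmp14*, a membrane-bound metalloproteinase, was at 51.1, 53.97 and 54.6 RPKM in BSCs, 158, 157 and 153 in EpCAM-negative cells and at most 31.6 elsewhere, and *Pcolce* was at most 59.9 elsewhere. *Itgb5*, given above, was at most 26.9 elsewhere. In BSCs the 4 contractile genes were between 0.43 and 0.75 (log2) above the next highest population and *Dcn* 0.62. In RPKM the other populations reached 45.7 for *Flna*, 7.39 for *Smtn*, smoothelin, and 24.4 for *Ppp1r12a*, the targeting subunit of myosin phosphatase.

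**Figure D5:**
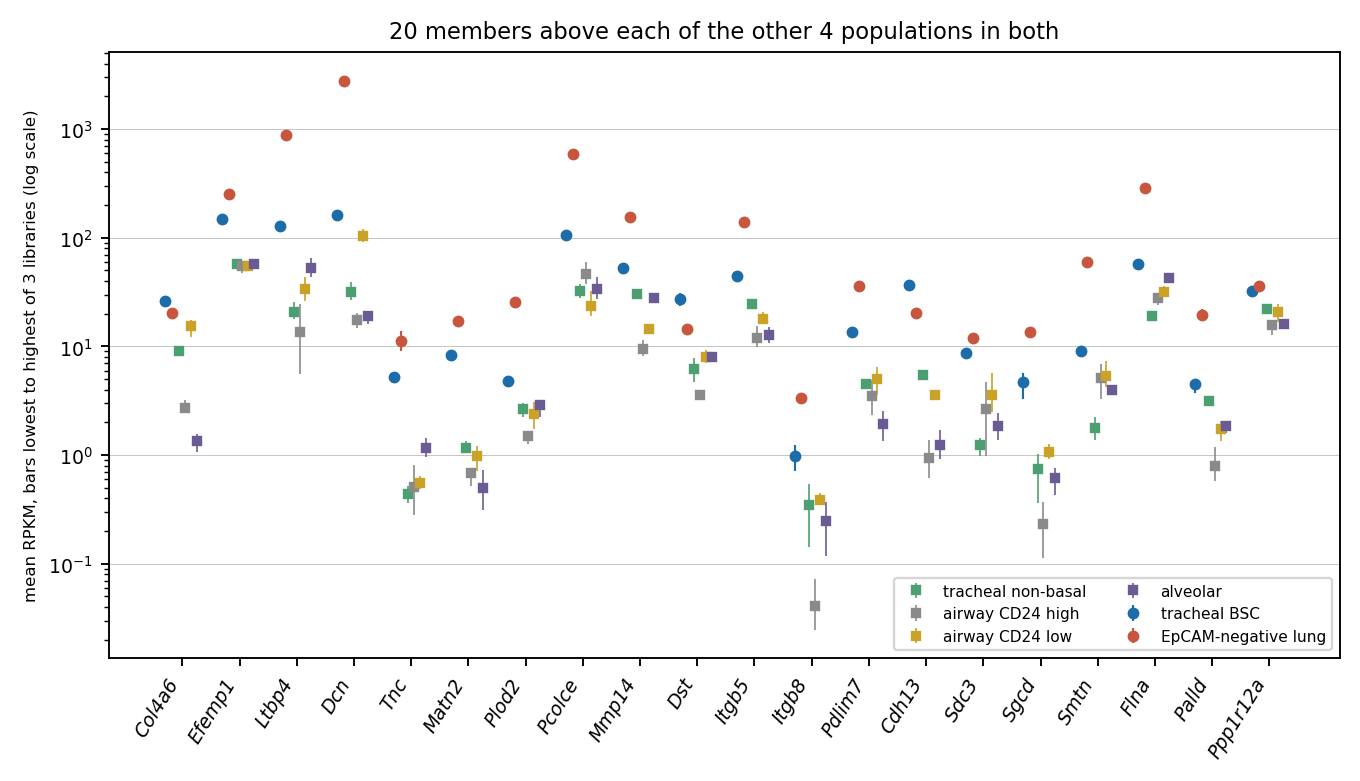
Mean RPKM on a log axis, with bars from the lowest to the highest of 3 libraries, of the 20 members that were higher in both BSCs (blue circles) and EpCAM-negative cells (red circles) than in each of the other 4 populations (squares). The circles lay above the squares for every gene shown, which the selection of the genes required. The margins were widest for *Matn2*, *Tnc*, *Sgcd* and *Cdh13*. They were narrowest for *Col4a6* in EpCAM-negative cells and *Flna* in BSCs.

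The filament and transcription factor genes that mark epithelium and mesenchyme mostly separated the populations. Of 14 intermediate filament genes 10 were higher in BSCs and 3 in EpCAM-negative cells. *Vim*, vimentin, the filament of mesenchyme, was at 1.85, 2.91 and 2.80 RPKM in BSCs and 676, 697 and 705 RPKM in EpCAM-negative cells, a log2 difference of -8.10 ± 0.44. *Krt19* was at 1163, 1132 and 1024 against 8.88, 9.01 and 10.2, and the nuclear lamin *Lmna* did not pass at 91.6, 115 and 110.4 against 97.6, 96.9 and 96.6. Of 39 lineage transcription factors 18 were higher in BSCs and 21 in EpCAM-negative cells. For both lists the shares over all genes tested were 33.7% and 36.5%.

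*Trp63*, the p63 factor that basal cells need, was at 86.8, 102 and 104 RPKM in BSCs and 0.756, 0.791 and 0.629 in EpCAM-negative cells. *Klf5* was at 166, 219.5 and 226 against 1.21, 1.58 and 1.45. *Elf3* was at 175, 165 and 159.5 against 1.32, 1.16 and 1.37. *Foxa1* was at 154, 159.7 and 156 against 0.907, 0.725 and 1.05. These 4 epithelial factors were at most 1.58 RPKM in the EpCAM-negative libraries. The mesenchymal factors *Tcf21* and *Tbx4* had 0 reads in BSCs and were at 152, 156 and 195 and at 64.1, 66.8 and 79.7 RPKM in EpCAM-negative cells, and *Tbx2* was at 5.17, 4.58 and 4.90 against 152, 151 and 184. Factors known for repressing E-cadherin differed in direction. *Snai1* was at 0.125, 0.0522 and 0.107 RPKM in BSCs against 28.4, 26.97 and 35.03. *Zeb1* was at 0.206, 0.205 and 0.195 against 24.2, 25.6 and 22.8. *Zeb2* was at 0.150, 0.149 and 0.174 against 28.9, 31.01 and 30.4, while *Snai2* was higher in BSCs at 15.5, 20.8 and 19.2 against 7.97, 7.34 and 6.96, a log2 difference of 1.32 ± 0.20 (adjusted p = 1.58e-05).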

How the data were processed

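RNA was sequenced from 18 sorted mouse libraries, of which the 6 of BSCs and EpCAM-negative cells were compared. Alignment by the authors was with Rsubread, on mm10, from single-end reads. Reads per RefSeq gene came from featureCounts, bcl2fastq 1.8.4 is named in the submitters' processing notes, and the authors deposited raw counts with gene lengths, without normalization. The sources used here state no strand setting, so that reads of overlapping and antisense genes cannot be told apart.

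From these counts, genes with CPM above 0.2 in at least 3 libraries (17989 of 27179) were scaled by TMM and tested with the quasi-likelihood test of edgeR 4.0.16 in R 4.3.3 (limma 3.58.1, DESeq2 1.42.0 as alternatives), fitted on all 18 libraries without a block, although libraries of 1 organ share mice by the labels. Adjusted p-values are Benjamini-Hochberg over all genes, with a threshold of 0.05. RPKM was computed from counts, deposited lengths and scaled library sizes. A gene was taken as expressed in both populations at 1 RPKM or more in all 6 libraries, and a population at 0 reads was given a floor of 3 reads for bounds on a fold, which cover counting error only. Of 551 listed symbols 550 matched, 6 of them by an older name.

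The genes named are the markers, the 10 most abundant per direction with non-overlapping libraries and a log2 difference of at least 4, the 3 highest called members of each list per direction, the 3 matrix, adhesion and contractile members of each list with the highest lowest library among those in both populations, all members at a similar level or above the other 4 populations, and *Acta2*, *Actb*, *Actg1*, *Myl9*, *Myl12a* and *Myl12b*. Others, such as *Fn1*, *Lama2*, *Fermt1*, *Ddr1*, *Myh10*, *Myocd* and *Snai2*, were chosen after their values were seen. A gene that the rule also took is not reported here. The members and lists were chosen with earlier results of these data known. Motifs were searched in RefSeq GRCm38.p6 promoters. The fit was tested on simulated data, and the alternatives were other tools, scalings, filters, thresholds, a thinning of the tracheal libraries to the median lung depth, a length correction and leaving out each library.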

Additional observations from a re-analysis of the deposited data

How the results depend on the processing

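Counts by class were taken under 16 alternatives, not in the tests against a minimum fold or with the mouse as a block. They kept within 1.5 times of their value in these 16. Matrix genes higher in BSCs numbered 5 to 7 and in EpCAM-negative cells 116 to 120, adhesion genes 53 to 57 and 48 to 51, and contractile genes 10 to 14 and 38 to 42. Leaving out each library in turn gave 5655 to 5812 genes higher in BSCs and 5967 to 6330 in EpCAM-negative cells. A test against a fold of 2 (glmTreat) gave 2395 and 3822, and the classes were not counted under it. A minimum of 5 RPKM left 109 members expressed in both. Without TMM factors the median log2 difference of all genes was 0.18, 885 genes and 33 members stood above the other 4 populations, and 7 uncalled genes changed sign (*P4ha2* 0.196, *Pdlim5* 0.218, *Myl12b* 0.098, *Myl6b* 0.0455, *Synpo* 0.165, *Ppp1r12a* 0.0634, *Rock2* 0.171). The cause was not tested. Other sign changes were of uncalled genes near 0. *Dag1* was -0.0182 under DESeq2, -0.0181 under RLE factors, -0.0224 with CPM above 1, -0.0338 with thinned tracheal libraries and -0.0359 to 0.102 with each library left out. *Pdlim5* was 0.0121 without a filter, 0.00911 on the 6 libraries alone and -0.0625 to 0.0362 with each library left out. *P4ha2* was 0.0387 with the length trend removed and -0.0824 to 0.0161 with each library left out. *Myl12b* was 0.0479 with the length trend removed, and *Synpo* -0.115 to 0.00981 with each library left out. Of 2864 values of 179 named genes under the alternatives, 2779 kept their direction and side of the threshold, 47 were no longer past it and 12 newly were. *Acta1* lost its call under limma voom, on the 6 libraries alone, when thinned and without BSC replicate 2 or EpCAM-negative replicate 1 or 3. With thinned tracheal libraries *Col4a6*, *Tns3*, *Mkl1* and *Vegfa* lost theirs too. With library size alone the calls of *Cd151*, *Lpp*, *Myl6*, *Rhoa* and *Zfp36* were lost and *Icam1*, *Dag1* and *Cadm1* were newly called. With the length trend removed *Col4a6*, *Tns3*, *Myl6* and *Zfp36* lost theirs, *Tns3* did with RLE factors and *Vegfa* with CPM above 1. On the 6 libraries alone *Sdc3*, *Icam1* and *Ppp1cb* were newly called, and with the replicate block also *Ppp1r12a* (adjusted p = 0.0435 in edgeR) and *Itgav* (adjusted p = 0.0454). Replicate numbers belonged to different mice in the populations, with correlations of deviations of 0.00282, 0.04 and -0.0226. The replicate block gave 6476 and 6643 genes (6536 and 6702 without it on the same 6 libraries) and *Pdlim5* at 0.00986. For the genes above the other 4 populations, where libraries of 1 organ share mice, a fit with the mouse as a random replicate block in limma voom, chosen after seeing the data, gave 555 genes and 25 members (531 and 24 in limma voom without it, with a correlation of 0.113 within mice). The lower depth of the EpCAM-negative libraries limits what can be read from genes at 0 reads there.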

Other observations

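Lists of paracrine signalling, cell cycle and early response genes were read in the same contrast. Of 45 ligands and receptors tested, 18 were higher in BSCs and 22 in EpCAM-negative cells, against 33.7% and 36.5% of all genes. *Pdgfa*, a ligand, was higher in BSCs (45.8, 43.1 and 45.6 against 19.2, 20.5 and 19.9 RPKM, BSC libraries first), and its receptor gene *Pdgfra* was at 0.0338, 0.0328 and 0.0377 against 216, 225 and 288. *Fgfr2*, the receptor that binds FGF7 and FGF10 in its epithelial form, was at 102, 99.4 and 101.3 against 10.4, 9.44 and 11.6, while *Fgf7* was at 0, 0.0207 and 0.0211 against 48.02, 50.8 and 50.2 and *Fgf10* at 0, 0.00604 and 0 against 21.04, 21.7 and 21.8. In the same way *Met* was at 45.7, 45.8 and 47.03 against 1.38, 1.22 and 1.81 and its ligand *Hgf* at 1.66, 1.99 and 1.90 against 18.8, 18.9 and 21.7. In these 3 systems, which were picked after their values were seen, ligand and receptor differed in opposite directions, while *Pdgfa* was expressed in both populations. *Hbegf*, an EGF family ligand, was at 183, 201 and 204 against 8.52, 7.16 and 9.94, and *Tgfb3* at 2.95, 2.47 and 2.51 against 106, 97.5 and 92.7.

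All 10 genes of cycling cells were higher in BSCs, against 33.7% of all genes tested. *Top2a* was at 20.3, 17.6 and 18.02 against 0.462, 0.570 and 0.584 RPKM, *Plk1* at 13.1, 13.3 and 13.4 against 0.437, 0.675 and 0.622 and *Mki67* at 14.1, 12.2 and 12.7 against 0.367, 0.631 and 0.340. Early response and stress genes were at 1 RPKM or more in all 6 libraries in 15 of 15 cases, with 7 higher in BSCs, 5 higher in EpCAM-negative cells and 3 not called. Of all genes tested, 58.9% were at this level, 33.7% were higher in BSCs and 36.5% higher in EpCAM-negative cells. *Atf3* was at 1332, 1873 and 1539 against 510.2, 500.2 and 615, *Jun* at 1352, 1762 and 1827 against 751, 752 and 923, *Junb* at 795, 1062 and 1000.1 against 1508, 1529 and 1715 and *Hspa1b* at 113, 124 and 131 against 235, 265 and 411. Dissociation differed between the organs, and its part in these levels cannot be told apart from the population.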
